A study of Mus musculus with 8 samples.

Results

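Cytosolic ribosomal protein genes encode the proteins that, with ribosomal RNA, build the large and small subunits of the ribosomes that translate nuclear messages. They were chosen by symbol alone, as Rpl or Rps with a number, plus Rplp0, Rplp1, Rplp2, Rpsa and Fau, without pseudogene symbols and without the Rps6k kinases. The rule took 78 of the 24222 symbols in the count tables, 46 of the large and 32 of the small subunit. RNA-seq counts came from haematopoietic stem cells, the marrow cells that renew themselves and give rise to blood, sorted by flow cytometry from 4 wild-type (WT) and 4 Kdm4a, Kdm4b and Kdm4c triple knockout (KO) mice, all C57BL6, with 1 library per mouse. The KO mice were taken 2 weeks after their knockout was induced, and the WT mice are listed at the same 2 weeks after induction. The Kdm4 enzymes remove methyl groups from lysines of histone H3. The age of the mice, the sort markers, the means of induction, whether WT mice received the inducing agent, and which parts of the genes were deleted went unstated in the labels.

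Ribosomal protein genes are known for high, steady transcription and for messages that begin with a run of pyrimidines, the 5′ terminal oligopyrimidine (TOP) tract, through which mTORC1 and Larp1 control their translation as a group. Because each ribosome holds the proteins in fixed proportion, surplus protein is degraded, and loss of a copy of some of these genes causes Diamond-Blackfan anaemia. Haematopoietic stem cells are known for a low rate of protein synthesis that is kept within narrow bounds. RNA counts measure messages and not protein or ribosomes.

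Total counts ran from 3594315 to 14872493 per library, of which 69813 to 316209 fell on ribosomal protein genes, and KO mouse 3 was sequenced deepest. Of the targeted genes, Kdm4c stood at 115 ± 22.7 CPM (counts scaled to a common library total; mean ± SD, n = 4) in WT and 36.0 ± 10.6 in KO. Its log2 fold change was -1.71 ± 0.20 (SE), and edgeR's quasi-likelihood test gave it an adjusted p of 2.05e-05. Kdm4a (log2 fold change -0.87, adjusted p 0.132) and Kdm4b (-1.40, adjusted p 0.142) did not pass edgeR's test, but the WT and KO libraries of each of the 3 genes did not overlap, with an exact two-sided permutation p of 0.0286 for each, the smallest that 4 against 4 can give. All 16 stem cell markers listed for the check passed the filter on low counts, with sums of 5276 to 5733 CPM in WT and 4498 to 5030 CPM in KO. Of the 16, edgeR called 0 (0.583% of all genes) and DESeq2 called 2 higher and 1 lower. The fold was below 1 in 12, with 5 lower and 2 higher at an unadjusted p under 0.05 (5.44% and 5.76% of all genes) and 6 with no overlap (5.81%). The smallest edgeR adjusted p were those of Vwf (log2 fold change 0.53, adjusted p 0.0699), Ly6a (0.72, 0.0967) and Mecom (-0.43, 0.106), followed by Mllt3 (-0.35, 0.163), Kit (-0.30, 0.219) and Hlf (-0.28, 0.235). In bulk RNA, fewer cells of a type and less RNA per cell cannot be told apart.

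The starts of some of these genes are shown because the group is known for messages that begin with a run of pyrimidines. The promoter table from RefSeq, on the build GRCm38.p6, held a window for 58 of the 78 genes, with 68 windows in all. Each line below runs 5′ to 3′ over 65 bases, from 45 before the annotated start to 20 after it, and capitals mark the longest run of C and T within 20 bases of the start. The genes are the highest of the large subunit (Rpl4), those with the longest runs among the genes named in the text (Rpl35, Rpl31, Rpl34, Fau and Rps10), others whose counts are described (Rpl39, Rps6 and Rps27), and Rps3, whose run was short.
Rpl4 (chr9:64173342-64173406, plus strand): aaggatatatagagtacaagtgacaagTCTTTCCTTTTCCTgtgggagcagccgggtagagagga
Rpl35 (chr2:39005112-39005176, minus strand): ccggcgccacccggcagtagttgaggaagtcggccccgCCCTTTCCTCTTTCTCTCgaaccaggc
Rpl31 (chr1:39367806-39367870, plus strand): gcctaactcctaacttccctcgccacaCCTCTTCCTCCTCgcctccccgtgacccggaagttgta
Rpl34 (chr3:130730318-130730382, minus strand): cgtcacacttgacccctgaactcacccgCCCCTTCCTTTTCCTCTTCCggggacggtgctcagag
Rpl39 (chrX:37085203-37085267, minus strand): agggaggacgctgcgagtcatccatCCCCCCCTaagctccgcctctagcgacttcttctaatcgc
Fau (chr19:6057902-6057966, plus strand): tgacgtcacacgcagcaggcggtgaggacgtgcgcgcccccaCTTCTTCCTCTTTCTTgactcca
Rps10 (chr17:27635225-27635289, minus strand): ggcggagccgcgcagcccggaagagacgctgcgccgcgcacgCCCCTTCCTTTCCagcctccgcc
Rps6 (chr4:86857348-86857412, minus strand): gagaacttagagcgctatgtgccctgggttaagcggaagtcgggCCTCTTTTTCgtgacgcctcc
Rps27 (chr3:90213629-90213693, minus strand): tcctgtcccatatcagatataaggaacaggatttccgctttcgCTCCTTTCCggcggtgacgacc
Rps3 (chr7:99483690-99483754, minus strand): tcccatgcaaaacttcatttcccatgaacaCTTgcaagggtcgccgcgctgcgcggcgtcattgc

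Rpl34 had the longest run of these, 20 bases, and Rpl35 had 18, Fau 16, Rpl4 14, and Rpl31 and Rps10 13 each. A second window of Rpl34, not printed, had a longest run of 8 bases. Runs were 10 bases in Rps6, 9 in Rps27, 8 in Rpl39 and 3 in Rps3, so the feature was not present to the same degree in every member. In Rpl4, Rpl31, Rpl39 and Rps3 the marked run ended before the RefSeq start. The GENCODE annotation used for transcript lengths places these starts elsewhere. Its gene bounds begin at 64173375 in Rpl4 and 39367842 in Rpl31, within the marked runs. On the minus strand they begin at 37085402 in Rpl39 and 99483738 in Rps3, upstream of the marked runs. Whether the runs lie in the messages of these cells was not tested. A run of 8 or more within 20 bases of the start was found in 44.1% of the ribosomal protein windows and in 16% of all 32851 windows in the table. The letters CTTTC on the sense strand, a common core of such runs, were there in 27.9% against 5.49% of all windows, in 35% of those of the large subunit and 17.9% of those of the small subunit. The motif CCGGAAG, a form of the site bound by ETS-family factors such as GABP, occurred on either strand of the 300-base window in 36.8% against 8.86%, and AAGATGG, the core of the YY1 site, in 17.6% against 6.34%. TATAAA within 40 bases upstream was found in 0 of 68 windows and in 2.31% of all. The ribosomal protein windows were also richer in G and C, with a median of 58.5% against 52.7% in all windows. The windows of all genes were not matched for this or limited to the genes tested here. These are matches of letters and not measured binding, a run of 8 was chosen as a limit after the other motifs, and some RefSeq starts lie away from the start that cells use.

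Ribosomal protein messages were abundant in the stem cells, and nearly all of the genes were measured. Of 78 genes, 75 passed the filter on low counts, 44 of the large and 31 of the small subunit. Per kilobase of transcript, the median level over all 8 libraries was 215.5 CPM per kb in the large and 254.8 in the small subunit, against 11.1 over all genes tested and 12.7 over 76 mitochondrial ribosomal protein genes. The members varied widely among themselves, as the quartiles of the tested genes were 141 and 396 CPM per kb.

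In the large subunit the highest gene was Rpl4, at 1390 CPM per kb, which encodes a protein with a long loop that lines the exit tunnel for the new peptide. Its level in the 4 WT libraries was 2082, 1985, 2199 and 2362 CPM, and in the 4 KO libraries 2321, 2040, 2049 and 2062 CPM. These ranges overlapped, and the log2 fold change was -0.03 ± 0.09 (SE). Next in the large subunit came Rpl31, at 808 CPM per kb, whose protein lies near the mouth of the exit tunnel, then Rpl17 at 637 and Rpl32 at 632. The lowest measured genes of the large subunit were Rpl35, at 47.1 CPM per kb, and Rpl30, at 4.16.

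High levels in the small subunit were found for Rps6, at 756 CPM per kb, whose protein is phosphorylated by the S6 kinases, Rps3a1 at 708 and Rps4x, encoded on the X chromosome, at 673. The spread between libraries was wide relative to the steps between neighbours. Rps6 lay between 585 and 860 CPM in WT and between 577 and 777 CPM in KO, and Rps3a1 between 584 and 869 CPM in WT and between 580 and 760 CPM in KO. The order of these genes is therefore a description of the mean only. The lowest measured genes were Rps16, at 48.6 CPM per kb, and Rps10, at 56.5, whose protein sits at the mRNA entry side and is ubiquitinated when ribosomes collide. Levels per kb rest on 1 annotated transcript per gene, and those of Rps15a (5130 bases) and Rps20 (3706 bases) were far longer than the median of 767.5 bases, which lowers their values.

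The 3 genes that did not pass the filter, and Rpl30, stood far below the rest. Rpl26 (chromosome 11, 68901583 to 68906989) had 0 counts in each of 8 libraries. A count of 0 allows up to 3 counts per library, for counting error only. Rpl34 (chromosome 3, 130726831 to 130730398) had 4, 3, 5 and 0 counts in WT and 3, 1, 8 and 8 in KO. Rps27 (chromosome 3, 90212522 to 90213651) had 0, 1, 0 and 0 counts in WT and 2, 0, 4 and 3 in KO. Rpl30 (chromosome 15, 34440505 to 34443640) had 15, 16, 10 and 9 counts in WT and 14, 21, 33 and 7 in KO, which is 1.30 to 4.48 CPM. The next lowest measured member, Rpl29, averaged 36.3 CPM over the 8 libraries, so these 4 genes formed a gap and not the tail of a continuous range. Rpl34 and Rps27 had pyrimidine runs of 20 and 9 bases at the starts printed above. At a second annotated start of Rpl34 (window chr3:130730379-130730443, not printed) the longest run was 8 bases.

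Ribosomal protein genes have many processed copies in the genome, and reads that fit several places can be lost in counting. To set the levels beside this, the share of each transcript's 50-base stretches that also occur in another annotated gene was computed. The median share was 52.6% over the 78 genes, against 0% over all genes tested, and 42 of the 78 shared more than 50% of these stretches. The share was 98.65% in Rps27, 71.28% in Rpl26, 50.58% in Rpl34 and 47.79% in Rpl30. It did not order the other members, since Rpl9 was at 457 CPM per kb with 93.32% shared and Rps3 at 530 with 2.96%. In bins of 25 tested genes each, the median level was 242 CPM per kb below 40% shared, 197.9 from 40 to 70%, and 350.5 at 70% or more. The part of shared sequence in the low counts was not tested, and levels of members with much shared sequence are uncertain for this reason.

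**Figure D1:**
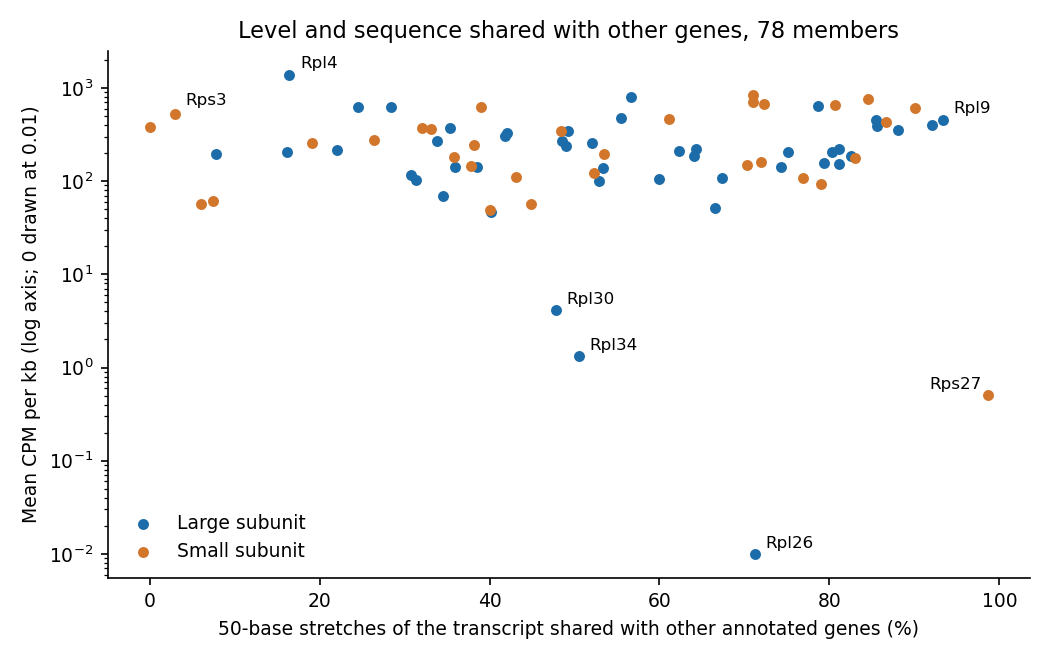
Mean level over 8 libraries, in CPM per kb of transcript on a log axis, against the share (%) of 50-base stretches of the transcript found in other annotated genes, with 1 point for each of the 78 genes, blue for the large and orange for the small subunit. Rpl26 (0 counts, drawn at 0.01), Rps27, Rpl34 and Rpl30 lie below the band that holds the other members, which runs across the whole range of shared sequence.

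Copies with a symbol of their own received few counts. Rps27rt, a retrocopy of Rps27, and Rpl34-ps1 had 0 counts in each library. Rpl37rt had 24 to 85 counts and Rpl14-ps1 51 to 112. In addition, 30 of the 78 genes hold 58 annotated snoRNA genes within their bounds, a known feature of the family, and these short RNAs guide modification of ribosomal RNA. Members lie on 20 chromosomes, with 4 on X and at most 14 on any chromosome.

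Between KO and WT, no ribosomal protein gene passed the test. By edgeR's quasi-likelihood test with adjustment over all 11498 genes, 0 of 75 were called, 0 of 44 in the large and 0 of 31 in the small subunit, and 0 by DESeq2 and by limma voom, where edgeR called 0.583% of all genes, 0.252% higher and 0.33% lower. At an unadjusted p under 0.05, 4 were higher (Rpl39, Rpl10a, Rpl36 and Rps29) and 1 lower, against 5.76% and 5.44% of all genes tested. Neither count is above the share over the whole table. No member had WT and KO libraries that did not overlap, while 5.81% of all genes did.

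Fold changes were small and went both ways. The fold was above 1 in 42 of the 75 genes and below 1 in 33, against 50.2% above and 49.8% below 1 over all genes. The median log2 fold change was 0.015 in the large subunit, 0.019 in the small subunit and 0.002 over all genes. It lay within 0.25 of 0 in 85.3% of the members and in 57.2% of all genes, which include many with fewer counts. The extremes were Fau at -0.36 and Rps29 at 0.63.

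The intervals show how far the data bound a change. The 95% interval of the log2 fold change lay inside ±0.5, a fold of 1.41, in 55 of 75 genes, 33 of the large and 22 of the small subunit. It lay inside ±1, a fold of 2, in 73. The median half-width was 0.286. Rpl4 was bounded between -0.21 and 0.15, and Rpl30, with its few counts, only between -1.35 and 1.04.

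**Figure D2:**
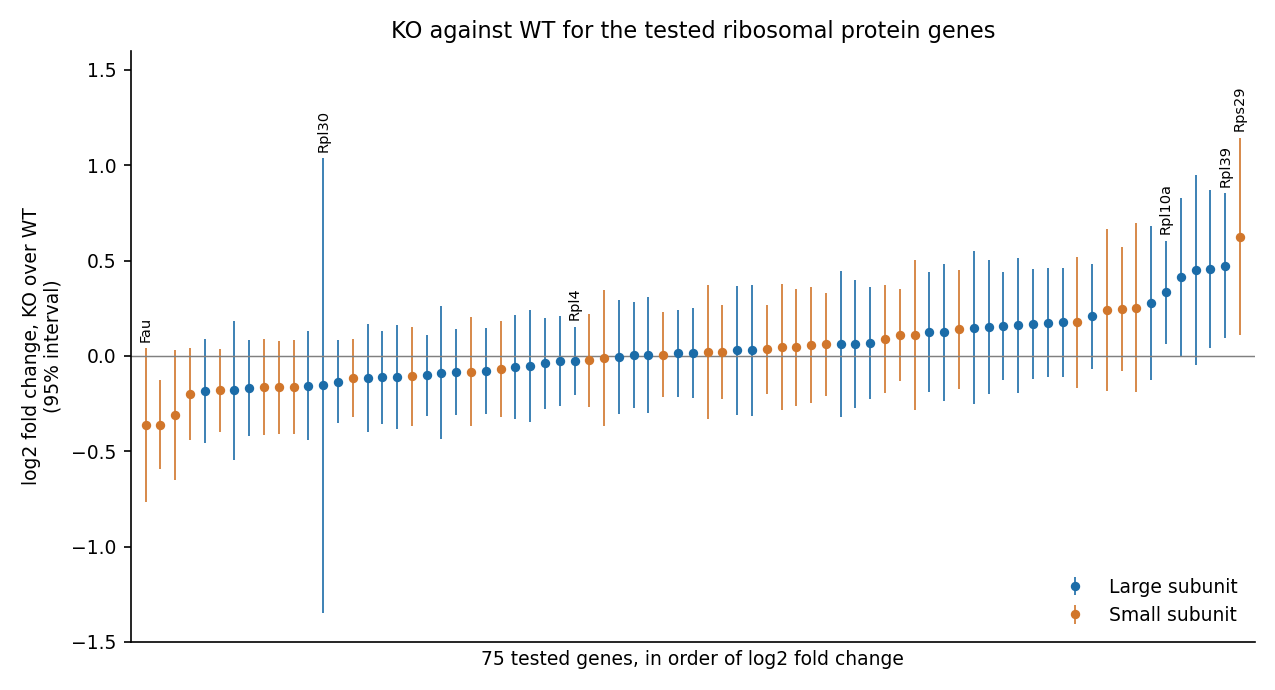
Fitted log2 fold change of KO over WT (points) with its 95% interval (lines) for the 75 tested genes in order of size, with 6 of them named, blue for the large and orange for the small subunit. Most points lie within 0.25 of 0, from Fau on the left to Rps29 on the right, and Rpl30 has the widest interval.

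Of the small subunit, Fau, which encodes a ubiquitin-like protein fused to a ribosomal protein, had the lowest log2 fold change of the family. Its level was 54.1, 64.9, 72.9 and 55.5 CPM in WT and 59.9, 48.1, 47.1 and 33.98 CPM in KO, and the groups overlapped. The log2 fold change was -0.36 ± 0.20 (SE), and its adjusted p was 0.497 by edgeR's quasi-likelihood test. Rps14, whose loss underlies the anaemia of the 5q deletion syndrome, was at 188, 150, 197 and 107 CPM in WT and 121, 113, 146 and 134 CPM in KO, with WT mouse 4 the lowest of all. Rps4x (log2 fold change -0.18, adjusted p 0.547) and Rps3a1 (-0.20, adjusted p 0.557) did not pass edgeR's test either.

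Rps29 had the largest positive fold change, and it rested on a single library. Rps29 (chromosome 12, 69157722 to 69159186), a zinc-binding protein of the small subunit head and a Diamond-Blackfan gene, was at 50.6, 55.1, 50.5 and 72.0 CPM in WT. In KO it was at 80.2, 55.8, 141 and 62.6 CPM, so KO mouse 3 was far above all others and 2 KO mice lay within the WT range. The log2 fold change was 0.63 ± 0.25 (SE), with an adjusted p from edgeR of 0.332, and 0.21 without KO mouse 3. Rps16 (log2 fold change 0.24, adjusted p 0.734) and Rps10 (0.11, adjusted p 0.900) did not pass edgeR's test. For Rps16, KO mice 1 and 3 (65.7 and 76.2 CPM) lay above the WT range of 43.9 to 56.3 CPM, and KO mice 2 and 4 within it. For Rps10, KO mouse 3 (62.7 CPM) lay above the WT range of 42.8 to 54.1 CPM, and the other KO mice within it.

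Of the large subunit, Rpl39 (chromosome X, 37082520 to 37085402), a very small protein of the exit tunnel, had the smallest p. Its level was 110, 95.7, 96.2 and 118 CPM in WT and 154, 108, 207 and 106 CPM in KO. KO mice 1 and 3 lay above every WT mouse and KO mice 2 and 4 lay among them. The log2 fold change was 0.47 ± 0.19 (SE), with an adjusted p from edgeR of 0.317, and 0.22 without KO mouse 3. Rpl10a (chromosome 17, 28328471 to 28331033), the protein of the L1 stalk by which spent tRNA leaves the ribosome, was at 250, 181, 246 and 227 CPM in WT and 326, 277, 305 and 233 CPM in KO. Here 3 KO mice lay above every WT mouse and KO mouse 4 lay within the WT range, with a log2 fold change of 0.33 ± 0.13 (SE).

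Rpl36 (chromosome 17, 56613416 to 56614243) stood at 63.5, 35.2, 51.1 and 50.3 CPM in WT and 74.8, 59.9, 85.6 and 53.5 CPM in KO, with a log2 fold change of 0.46 ± 0.20 (SE). Rpl37 was at 63.3, 68.0, 78.7 and 88.3 CPM in WT and 98.6, 73.8, 142 and 73.0 CPM in KO. Both showed the same order of KO mice as Rpl39 and Rps29, in that mice 1 and 3 were above mice 2 and 4. Rpl29 did not follow it, at 34.3, 23.2, 40.9 and 25.5 CPM in WT and 29.4, 37.2, 55.2 and 44.6 CPM in KO.

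**Figure D3:**
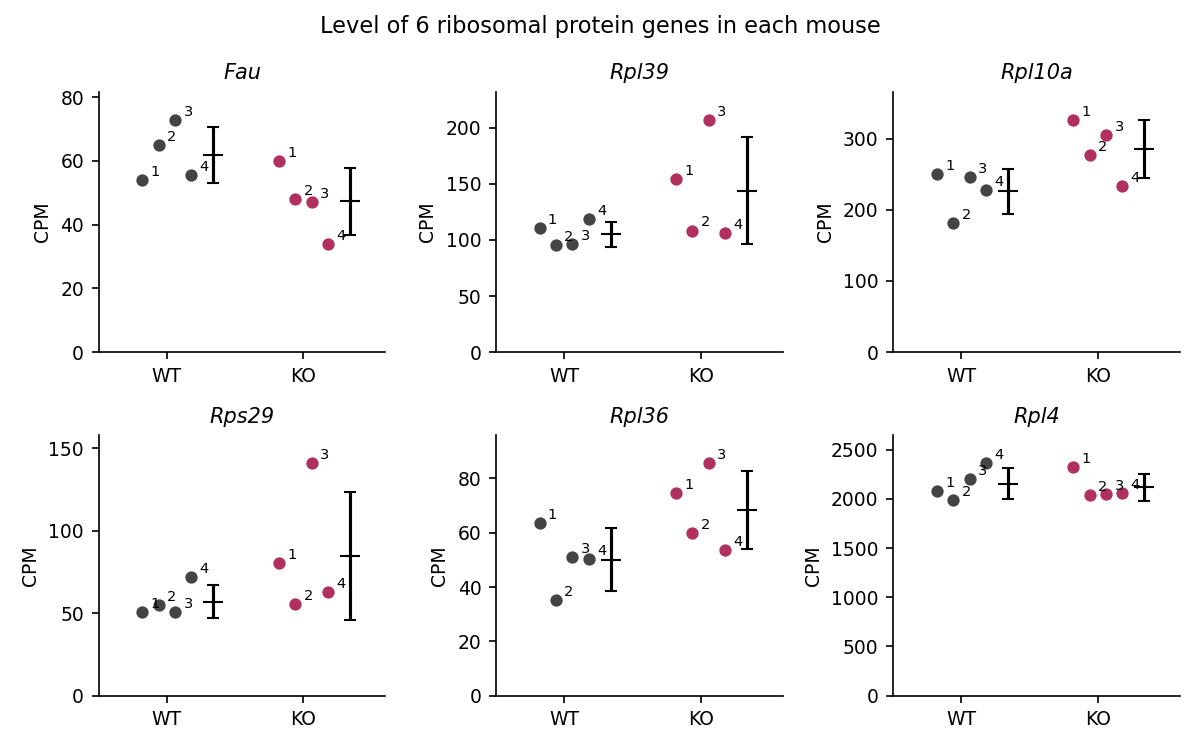
Level in CPM of Fau, Rpl39, Rpl10a, Rps29, Rpl36 and Rpl4 in each WT (grey) and KO (red) mouse, numbered by mouse, with the mean (short line) and SD (bar) of each group of 4. WT and KO overlap in every panel, and KO mouse 3 is the highest for Rpl39, Rps29 and Rpl36.

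Genes whose loss causes anaemia or a p53 response lay on both sides of 0, from Rps29 (log2 fold change 0.63) and Rpl35 (0.28) to Rps14 (-0.31), and did not pass edgeR's test. Rps19, the gene most often mutated in Diamond-Blackfan anaemia, was at 86.3 ± 10.6 CPM in WT and 85.8 ± 16.9 in KO (SD, n = 4). Rpl5 was at 545 ± 76.4 CPM in WT and 550 ± 38.6 in KO, and Rpl11 at 168 ± 17.2 and 187 ± 30.1 CPM (SD, n = 4 each). The Rpl5 and Rpl11 proteins bind Mdm2 when ribosome assembly stalls. Of the 20 members listed for Diamond-Blackfan anaemia 18 were tested and 0 were called (0.583% of all genes); the fold was above 1 in 14 (50.2% of all genes), with a median log2 fold change of 0.061 (all genes 0.002).

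Ribosomal protein genes took a similar share of the counts in both groups. The share was 1.931, 1.942, 2.036 and 2.25% in WT and 2.15, 1.83, 2.126 and 1.821% in KO. The means were 2.04% ± 0.148 in WT and 1.98% ± 0.181 in KO (SD, n = 4 each). The groups overlapped, and the KO mice split into a higher pair, 1 and 3, and a lower pair, 2 and 4.

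The balance of the subunits differed slightly between the means and overlapped between mice. The ratio of summed counts, large over small, was 1.34, 1.202, 1.275 and 1.28 in WT and 1.32, 1.365, 1.386 and 1.337 in KO. WT mouse 1 lay above KO mice 1 and 4, and the other 3 WT mice lay below every KO mouse. The means were 1.27 ± 0.0565 and 1.35 ± 0.0293 (SD, n = 4 each), and 1.21 and 1.28 with counts divided by transcript length. With the 3 members of highest counts left out, the ratio was 1.398, 1.243, 1.323 and 1.27 in WT and 1.307, 1.358, 1.411 and 1.369 in KO. WT mouse 1 then lay above KO mice 1, 2 and 4, and WT mouse 3 above KO mouse 1. No test was made, since the ratio sums members chosen with earlier results known.

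Single genes carried much of these sums. Rpl4 held 10.6% of the member counts and Rps3, which encodes a protein of the mRNA entry channel, held 5.04%.

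**Figure D4:**
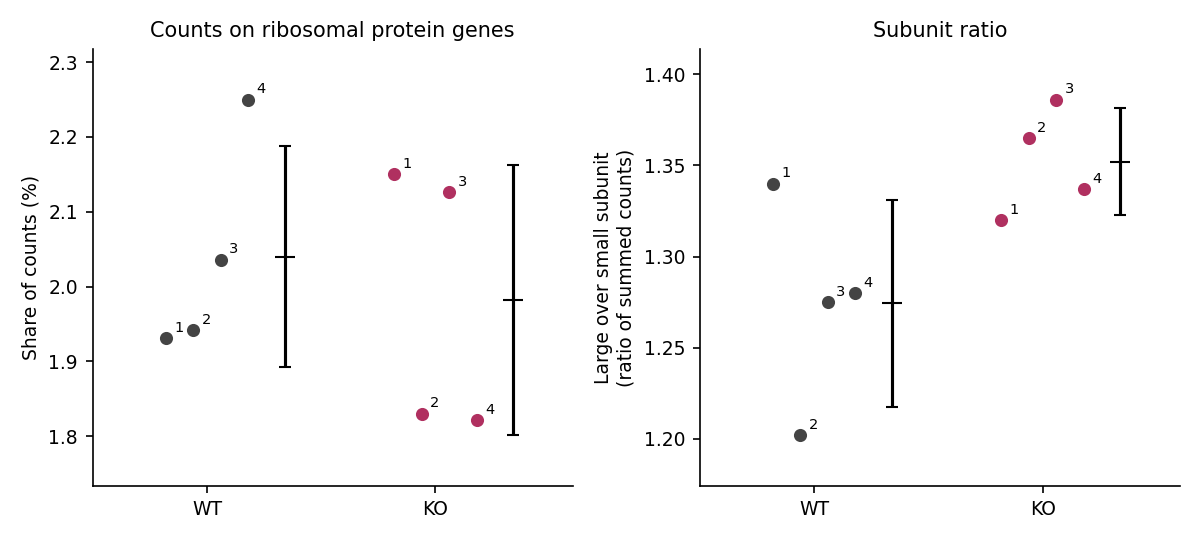
Left, the share (%) of each library's counts on the 78 genes; right, the ratio of summed counts of large over small subunit genes; each point is a mouse, numbered, with the mean and SD of 4 mice per group, and neither axis starts at 0. Shares overlap between WT and KO, and the ratio of WT mouse 1 (1.34) lies within the KO range of 1.32 to 1.386.

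In some libraries most of the members lay on the same side of their usual level. Each of the 75 genes was set against its own mean log2 CPM over the 8 libraries. In WT mice 1 to 4, 32, 25, 37 and 56 of 75 were above their mean, and in KO mice 1 to 4, 65, 9, 53 and 15. As shares these are 42.7, 33.3, 49.3 and 74.7% in WT and 86.7, 12, 70.7 and 20% in KO, while over all genes tested the share was between 51.0 and 53.1% in every library. The libraries with the most and the fewest members above their mean were thus both KO, mouse 1 and mouse 2. In WT, mouse 4 stood highest, and mice 1 and 3 were nearer to the share of all genes.

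Both subunits gave this order of the KO mice. For the large subunit the share was 43.2, 27.3, 52.3 and 70.5% in WT and 84.1, 15.9, 72.7 and 25% in KO. For the small subunit it was 41.9, 41.9, 45.2 and 80.6% in WT and 90.3, 6.45, 67.7 and 12.9% in KO. In size the shifts were modest. The mean deviation on the log2 scale was -0.03, -0.08, -0.02 and 0.08 in WT and 0.14, -0.14, 0.15 and -0.10 in KO. Shares of genes above their mean depend on the library's scaling. With scaling by library totals alone they were 36, 33.3, 50.7 and 81.3% in WT and 85.3, 13.3, 73.3 and 16% in KO. Depth was evened out by thinning counts to an equal total. They then ran from 12% in KO mouse 2 to 86.7% in KO mouse 1, with the other libraries between 21.3 and 72%.

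**Figure D5:**
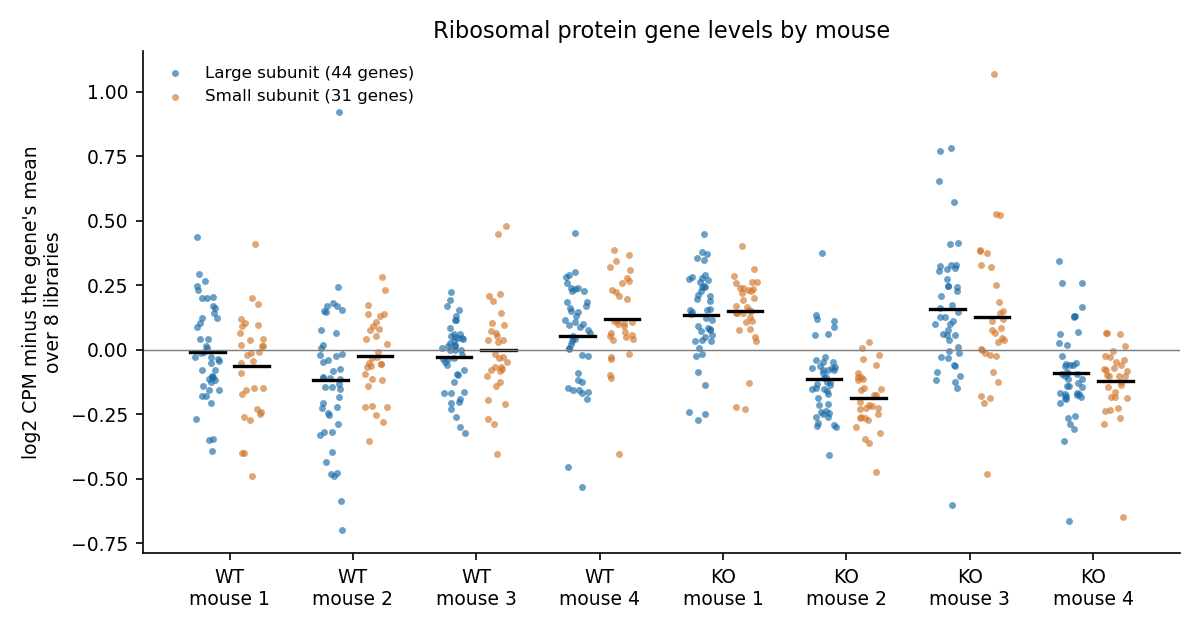
Deviation of log2 CPM from each gene's mean over the 8 libraries, by mouse, with 1 point per tested gene, blue for 44 large and orange for 31 small subunit genes; black lines are the mean of each set. Points of both subunits lie mostly above 0 in WT mouse 4 and KO mice 1 and 3 and mostly below 0 in KO mice 2 and 4.

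The spread about the library's shift was narrower than over all genes tested, which include many with fewer counts. The SD of the members' deviations within a library was 0.137 to 0.265. It was 0.404 to 0.551 for all genes and 0.313 to 0.54 for mitochondrial ribosomal protein genes, whose levels were lower. For the 5171 genes averaging at least 36.3 CPM, the level of the lowest tested member outside Rpl30, it was 0.229 to 0.287. Above that floor the 5171 genes were not matched to the members in level. In KO mouse 3 the SD was 0.265 in members and 0.269 in the 5171 genes. Over the 8 libraries, the median SD of a gene's log2 CPM was 0.202 in members, 0.237 in the 5171 genes and 0.359 in all genes. The steadiest members were Rps24 (SD 0.0916), Rpl4 (0.0928), Rpl14 (0.0949), Rpl6 (0.0991) and Rpl17 (0.0993). The least steady of the large subunit were Rpl30 (0.506) and Rpl29 (0.417), and of the small subunit Rps29 (0.493) and Fau (0.334). Rps24, a Diamond-Blackfan gene, was at 410 ± 18.1 CPM in WT and 412 ± 35.8 in KO (SD, n = 4).

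KO mouse 3 had the widest spread of deviations, 0.265. In it 7 genes lay more than 0.5 above their own mean on the log2 scale, namely Rps29 (1.07), Rpl39 (0.78), Rpl37 (0.77), Rpl29 (0.65), Rpl36 (0.57), Rps16 and Rps28, and 1 lay more than 0.5 below, Rpl27 (-0.60). Outside Rpl30, no other library had a member more than 0.5 above its mean, while Rpl36 (-0.70) and Rpl29 (-0.59) in WT mouse 2 and Fau (-0.65) in KO mouse 4 lay more than 0.5 below. These genes were singled out by their values, and no test was made of them. The 12 members of 500 bases or less had a mean deviation of 0.22 in KO mouse 3, the 44 members of 500 to 1000 bases 0.12 and the 19 members over 1000 bases 0.14.

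Several other quantities varied between the libraries beside this shift. KO mouse 1, KO mouse 2, KO mouse 3 and WT mouse 4 had 2.37 to 2.49% of counts on Rn45s, the ribosomal RNA precursor, and the other 4 libraries 3.17 to 4.85%. Among 128 other genes of 500 to 1000 bases, 99 were above their mean in KO mouse 1, 41 in KO mouse 2, 75 in KO mouse 3 and 77 in KO mouse 4. In WT mice 1 to 4 the counts were 50, 52, 43 and 77. Mitochondrial ribosomal protein genes were above their mean in 72.4, 42.1, 65.8 and 57.9% of cases in KO mice 1 to 4. Their shares in WT mice 1 to 4 were 51.3, 40.8, 35.5 and 68.4%. So KO mouse 4 was low for cytosolic members and not for these sets. WT mouse 4 was the highest WT mouse in these sets as in the members. The part of transcript length and RNA content in the shifts was not tested.

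Translation factors with TOP messages kept the members' order of libraries only in part. In WT mice 1 to 4, 12, 17, 11 and 13 of 23 were above their mean, and in KO mice 1 to 4, 15, 8, 6 and 4. By this count WT mouse 2 was the highest for these factors, where 33.3% of ribosomal protein genes were above their mean. KO mouse 3 was low, where 70.7% were. By mean deviation on the log2 scale the factors were highest in KO mouse 1 (0.131) and WT mouse 4 (0.0889), before WT mouse 2 (0.0733). They were lowest in KO mice 3 (-0.122), 2 (-0.0982) and 4 (-0.0788). KO mice 1, 2 and 4 and WT mice 3 and 4 thus lay on the members' side of 0. KO mouse 3 and WT mice 1 and 2 lay on the other side. The factors were near 0 in WT mice 1 (0.0069) and 3 (-0.0011). None of the 23 was called, where 0.583% of all genes were. At an unadjusted p under 0.05, 3 were lower and 0 higher, against 5.44% and 5.76% of all genes. Eef2, the factor that moves the ribosome along the message, was at 1590 ± 195 CPM in WT and 1347 ± 76.2 in KO, and Eif4b, a cofactor of the cap-binding helicase, at 847 ± 74.8 and 717 ± 28.8 (SD, n = 4 each). Their adjusted p were 0.337 and 0.341 by edgeR's quasi-likelihood test.

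Of 11 ribosomal protein symbols outside the rule, 6 were tested and 0 called (0.583% of all genes). Gnb2l1, the Rack1 protein of the small subunit that serves as a docking site for signalling proteins, was at 490 ± 34.3 CPM in WT and 446 ± 22.4 in KO (SD, n = 4 each). The tissue-restricted paralogs Rpl3l, Rpl10l and Rpl39l averaged at most 0.219 CPM in either group.

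The regulators around the ribosomal proteins did not pass the test either. Of 20 genes of mTORC1 signalling and TOP message control 0 were called (0.583% of all genes), with a median log2 fold change of 0.03. Before adjustment, 0 of the 20 had a p below 0.05 by edgeR's test in either direction, where 11.2% of all genes did. Larp1, which binds the TOP tract, was at 357 ± 43.7 CPM in WT and 380 ± 36.6 in KO, and Mtor at 120 ± 20.1 and 132 ± 15.4 (SD, n = 4 each). Of 26 chaperones, importers and assembly factors of ribosomal proteins 0 were called (0.583% of all genes), with a median log2 fold change of 0.06. Ipo11, an importin, had no overlap between its WT (228 ± 30.7 CPM) and KO (272 ± 11.8 CPM) libraries but an edgeR adjusted p of 0.459.

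Of 14 transcription factors known from ribosomal protein promoters 0 were called (0.583% of all genes). Gabpa, which binds the ETS-type site counted in the promoters, was at 436 ± 26.4 CPM in WT and 416 ± 39.6 in KO, and Yy1 at 109 ± 16.8 and 107 ± 14.1 (SD, n = 4 each). Myc was at 531 ± 81.3 CPM in WT and 583 ± 69.0 in KO. Max, the partner of Myc proteins, had a log2 fold change of 0.40 and Mycn one of -0.39, with adjusted p of 0.206 and 0.295 by edgeR's quasi-likelihood test. These values concern messages of the factors and not their activity.

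The genes that respond to faulty or stalled ribosomes were described in the same way. Of 11 genes of the 5S RNP and p53 response 0 were called (0.583% of all genes), with 3 higher and 0 lower at an unadjusted p under 0.05 (5.76% and 5.44% of all genes). Zmat3, a p53 target, was at 91.8 ± 19.8 CPM in WT and 144 ± 37.0 in KO, and Cdkn1a, the p53 target that halts the cell cycle, at 5.58 ± 2.34 and 12.4 ± 2.78 (SD, n = 4 each). The libraries of Cdkn1a did not overlap, and the adjusted p were 0.124 for Zmat3 and 0.279 for Cdkn1a by edgeR's quasi-likelihood test. Of 18 genes of collision sensing and ribosome quality control 0 were called (0.583% of all genes). Rnf14, a ubiquitin ligase of that pathway, was at 102 ± 3.12 CPM in WT and 78.7 ± 4.17 in KO with no overlap, and Pelo, which rescues stalled ribosomes, at 9.96 ± 3.95 and 5.44 ± 1.65 (SD, n = 4 each), with adjusted p of 0.317 and 0.419 by the same edgeR test.

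Markers of other cell types were set beside the members. Of 12 erythroid markers 7 were tested and 1 was called (0.583% of all genes). Car2 fell, with a log2 fold change of -0.81 and an edgeR adjusted p of 4.19e-06. The list's summed level was 2276 to 2486 CPM in WT and 1326 to 1530 CPM in KO. Car2 made up nearly all of that sum, at 2286 ± 112 CPM in WT and 1306 ± 84.9 in KO (SD, n = 4 each). Car1 had a log2 fold change of -1.81 with no overlap and an edgeR adjusted p of 0.133, Gata1 one of 0.44 and Tfrc one of 0.04. The 4 globin genes of the list had 0 counts in each library, and 58.3 to 86.9% of their 50-base stretches occur in other genes; the part of this in the zeros was not tested. Of 9 macrophage and dendritic markers 5 were tested, with 2 called higher and 1 lower (0.252% and 0.33% of all genes). Cd68 and Cd74 rose (log2 fold changes 1.57 and 1.18, edgeR adjusted p 0.0347 and 0.0371) and Mrc1 fell (-2.84, adjusted p 0.0200). Summed levels were 86.6 to 187 CPM in WT and 199 to 267 CPM in KO. Cd74, H2-Ab1 and H2-Aa made up most of these sums, at 37.0, 46.4 and 28.9 CPM in WT and 86.6, 66.6 and 54.1 CPM in KO. H2-Ab1 and H2-Aa were not called (edgeR adjusted p 0.290 and 0.142). C1qa averaged 0.0433 CPM in WT and 0.0521 in KO, and Siglech was at 0. Of the lists for neutrophils and monocytes (5 of 12 tested), lymphocytes (4 of 12), mast cells and basophils (1 of 6) and stroma and endothelium (4 of 8), 0 genes were called (0.583% of all genes). The erythroid, macrophage and stem cell sums did not overlap between the groups while the ribosomal protein share did, and their part in the members' values was not tested.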

How the data were processed

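The authors deposited unnormalized read counts by gene symbol, with a table for each mouse. Per the labels' protocols, amplified cDNA was sequenced on an Illumina NextSeq, and reads were mapped with STAR 2.4.0d-2 and counted with htseq-count. The build is mm10 per the submitters' processing notes; annotation and strand used in counting were not stated. Reads carry no molecular identifiers, so intervals and floors cover counting error only. Counts were tested with edgeR 4.0.16 in R 4.3.3: filterByExpr (minimum count 10, total 15; 11498 genes), TMM scaling and quasi-likelihood tests on genotype, two-sided, Benjamini-Hochberg over all genes, threshold 0.05. DESeq2 1.42.0, limma 3.58.1, other scalings and filters and omission of each mouse were alternatives. CPM are TMM-scaled; transcript lengths and shared sequence come from a GENCODE annotation of that build. Scripts were tested on simulated data. Members and lists were chosen with earlier results of these data known. Genes were named by p, level, spread, low counts or known disease role; others, such as Rpl9, Rps24, Larp1 and Gabpa, were added after their values were seen, and a few that were due to be named are left out here.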

Additional observations from a re-analysis of the deposited data

Results flagged for a closer look

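In each group of 4 mice, the gap of the highest or lowest value to the next was compared with the range, and 1 of 58 groups of values was marked, where chance marks about 1 in 20. Rpl4 was at 2321 CPM in KO mouse 1, with the other 3 KO mice between 2040 and 2062.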

How the results depend on the processing

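Over 20 alternatives, 0 members of either subunit were called. The lowest adjusted p of a member was 0.0514, without KO mouse 1. The median log2 fold change ran from -0.04 to 0.06 in the large and from -0.05 to 0.06 in the small subunit. The difference in share, KO minus WT, was -0.0581 percentage points, between -0.196 and 0.012 over 10 alternatives, and that in the subunit ratio 0.0777, between 0.0527 and 0.0998 over 11. The count over all genes moved from 67 to 199 with no filter and 154 with DESeq2, and lay between 35 and 70 when a mouse was left out (35 without WT mouse 3, 44 without WT mouse 2 or KO mouse 4). Called targeted genes went from 1 to 2 with DESeq2, where Kdm4a had an adjusted p of 0.0463. Calls in the other lists went from 4 to 10 with no filter, 8 with DESeq2, 2 with voom and 2 with edgeR's legacy method, and were 1 to 4 with a mouse left out (1 without WT mouse 4, KO mouse 2 or KO mouse 4; 2 without KO mouse 3 or either of WT mice 2 and 3). The cause was not tested. Same-numbered WT and KO libraries did not deviate together (correlations of deviations -0.0917 to -0.0089), and no library correlated best with its own number. With the replicate number as a block all the same, 57 genes and 0 members were called, and the lowest adjusted p of a member was 0.235. Genes with few counts, such as Rpl30, are limited by depth.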
